A study of Mus musculus with 13 samples.

Results

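The acyl-CoA thioesterase genes Acot1, Acot2, Acot3, Acot4 and Acot12 were followed across 13 mouse livers, 5 of the 18820 genes that had an array feature annotated with a single gene symbol. The rule took, for each listed gene, the single-symbol feature with the highest mean over the 13 livers. Each gene had 1 such feature (Acot1 10397148, Acot2 10397145, Acot3 10397158, Acot4 10397153 and Acot12 10406564), so the rule made no choice among features. The genes themselves were picked with earlier results of these livers known, and their p-values are therefore no independent evidence.

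The series profiled total liver RNA of C57BL/6J mice on Affymetrix whole-transcript arrays, 1 array per liver. Sel1L is the adaptor of the Hrd1 ubiquitin ligase, which serves the degradation of misfolded proteins of the endoplasmic reticulum. The Sel1L-deficient mice (LiSel1lKO in the labels, KO here) came from a Sel1l allele with a loxP-flanked exon, whose lacZ-neo cassette had been removed by the FLPe recombinase, crossed to mice with Cre recombinase under the albumin promoter, which is active in hepatocytes. The labels call the control mice wildtype (WT) without saying whether they carried the floxed allele. The groups were KO livers at 3 weeks of age (n = 4), WT livers at 3 weeks (n = 3), KO livers at 9 weeks (n = 3) and WT livers at 9 weeks (n = 3). All mice were fasted through the morning before the livers were taken. The labels give no sex, litter or date, so p-values measure the spread between these livers only.

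Levels are the authors' deposited log2 expression values made by robust multi-array averaging (RMA), on which 1 unit is a doubling of the signal. A level is comparable between livers for the same gene, not between genes. Differences were tested with limma over all 35556 features and all 13 livers, with Benjamini-Hochberg adjustment, and a gene is said to have risen or fallen where the adjusted p was under 0.05.

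Sel1l itself was at 8.42, 7.90, 7.20 and 7.10 in the 3-week KO livers, against 8.94, 8.77 and 8.85 in the 3-week WT livers. It was at 7.90, 7.54 and 7.72 in the 9-week KO livers, against 8.78, 8.70 and 8.72 in the 9-week WT livers. Every KO liver thus lay below every WT liver of its age. The Sel1l difference was -1.21 ± 0.26 at 3 weeks and -1.02 ± 0.28 at 9 weeks (SE; limma adjusted p = 0.391 and 0.108). Without 3-week KO livers 3 and 4, which enter through the shared estimate of the spread, the 9-week difference had limma adjusted p = 0.029. The 3-week difference did not pass without them either. The sources used here do not say whether the feature's probes lie in the floxed exon. The summed level of 7 measured hepatocyte markers (albumin, apolipoproteins and others) lay between 15.25 and 15.45 in all 13 livers, as fits liver tissue. Livers 3 and 4 of the 3-week KO group stood apart from livers 1 and 2 of that group, with the least Sel1l and the lowest Acot1 to Acot4. Results that rest on them are given with and without them.

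Acyl-CoA thioesterases split acyl-CoAs into free acids and coenzyme A, the reverse of fatty acid activation, and so set how much acyl-CoA and free coenzyme A a compartment holds. The mouse type I enzymes are close relatives that act in different places: ACOT1 in the cytosol, ACOT2 in mitochondria, and ACOT3, ACOT4, ACOT5 and ACOT6 in peroxisomes. ACOT12 belongs to another structural class and hydrolyses acetyl-CoA in the cytosol. In liver, type I genes are known targets of PPARalpha, the nuclear receptor that switches on fatty acid oxidation in fasting.

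In the RefSeq gene table (GRCm38.p6) the type I genes stand side by side on chromosome 12 in the order Acot2, Acot1, Acot4, Acot3, Acot5, Acot6. Sel1l is on the same chromosome, with 90 protein-coding genes between Acot6 and it. Acot12 is on chromosome 13. The coding parts of Acot1 and Acot2 are nearly identical, and those of the other cluster genes are similar, so features of these genes may share probe signal, which was not tested.

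The 250 bases before the transcription start are shown for 4 of the genes: Acot2, which rose at 9 weeks, Acot1, its closest relative, Acot4, which carries most of the matches found, and Acot12, which lies outside the cluster. All are on the plus strand, from RefSeq on GRCm38.p6, at chr12:83987611-83987860 for Acot2, chr12:84009252-84009501 for Acot1, chr12:84038129-84038378 for Acot4 and chr13:91741271-91741520 for Acot12. Capitals mark matches, on either strand, to CCAAT (the CCAAT box), AGGTCA (the half-site of nuclear receptors), TATAAA (the TATA box) or CACGTG (an E-box, which reads the same on both strands).
Acot2: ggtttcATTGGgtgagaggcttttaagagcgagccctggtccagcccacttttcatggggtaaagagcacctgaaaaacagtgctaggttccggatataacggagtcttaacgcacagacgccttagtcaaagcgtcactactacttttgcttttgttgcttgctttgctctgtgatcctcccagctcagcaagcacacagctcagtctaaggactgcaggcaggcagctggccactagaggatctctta
Acot1: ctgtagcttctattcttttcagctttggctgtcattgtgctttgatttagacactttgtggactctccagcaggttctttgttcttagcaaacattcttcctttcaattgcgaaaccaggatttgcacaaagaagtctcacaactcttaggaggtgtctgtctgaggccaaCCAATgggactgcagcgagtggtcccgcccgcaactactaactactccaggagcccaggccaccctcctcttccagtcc
Acot4: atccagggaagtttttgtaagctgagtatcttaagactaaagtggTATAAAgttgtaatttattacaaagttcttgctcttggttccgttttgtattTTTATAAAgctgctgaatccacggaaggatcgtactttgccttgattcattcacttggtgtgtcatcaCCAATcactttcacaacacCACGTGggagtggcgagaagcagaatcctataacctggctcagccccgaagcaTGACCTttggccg
Acot12: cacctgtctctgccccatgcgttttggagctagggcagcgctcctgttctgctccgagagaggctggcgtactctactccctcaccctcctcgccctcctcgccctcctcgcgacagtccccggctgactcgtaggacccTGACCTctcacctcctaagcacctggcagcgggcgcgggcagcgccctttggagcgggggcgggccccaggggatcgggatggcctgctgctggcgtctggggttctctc

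The 4 promoters differed in these letters. A CCAAT match lay 79 bases before the start in Acot1, 244 bases before it on the minus strand in Acot2 and 85 bases before it in Acot4. Acot3, whose first listed start lies just after the end of chr12:84051894-84052143, had matches 77 and 113 bases before it. CCAAT occurs in 33.8% of the 32851 promoters of the table. The half-site AGGTCA occurs in 14.0% of them and was present, on the minus strand, in Acot4 (13 bases before the start) and Acot12 (110 bases before it).

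PPARalpha is known to bind 2 copies of AGGTCA in the same direction with 1 base between them. The exact repeat occurs in 0.0335% of promoters and in none of the 5 genes. With up to 2 mismatches it occurs in 3.24% of promoters. Acot4 then had TGACCTTTGGCCG on the plus strand (2 mismatches to the repeat's reverse complement) and Acot12 had TGACCTCTCACCT (1 mismatch), while Acot1, Acot2 and Acot3 had no match in this window. TATAAA occurs in 12.4% of promoters and CACGTG in 6.02%, and among the 5 genes both were seen in Acot4 alone. No match to the HNF4 type site CAAAGTCCA (0.384% of promoters), the STAT site TTCNNNGAA (7.02%), the ER stress element, which is CCAAT and CCACG with 9 bases between (0.113%), the ATF4 and CHOP site TGATGNAA (3.45%) or the cAMP response element TGACGTCA (1.55%) was found in the 5 genes. The promoter of Acot12 was 68.4% G and C, that of Acot4 42.4%, and the others lay between 45.2% and 50.4%. The median over all promoters was 52.4%.

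At 9 weeks, Acot2, the mitochondrial enzyme, was the one gene of the 5 that differed between genotypes beyond the test's threshold. It was at 10.39, 11.59 and 12.13 in the KO livers, against 8.88, 8.95 and 9.63 in the WT livers. The lowest KO liver, liver 1, lay above the highest WT liver. The mean was 11.37 ± 0.89 in KO livers and 9.16 ± 0.41 in WT livers (SD, n = 3 each), a log2 difference of 2.21 ± 0.48 (SE; 95% interval 1.16 to 3.26), or 4.64-fold. Acot2 rose (limma adjusted p = 0.0486). Of all features, 1.52% passed at this age, 1.03% upward, and 9.89% had every KO liver above every WT liver. An unadjusted p under 0.05 was found for 13.9% of features and for Acot2 alone among the 5 genes.

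The call of Acot2 stood close to its threshold. Leaving out KO liver 1 at 9 weeks gave a difference of 2.70 (limma adjusted p = 0.00996), whereas leaving out any other single liver, of either age, gave 1.83 to 2.45 with adjusted p between 0.0523 and 0.182. Each array's file name in the labels holds a 5 or a 7 after a letter, which is taken here as the column of an array plate, an assumption that the labels do not settle. With the column as a block the difference was 2.23 (limma adjusted p = 0.0797), and within the assumed columns it was 2.31 in column 5 (2 KO livers and 1 WT liver) and 2.33 in column 7 (1 KO liver and 2 WT livers). The size and direction thus held in both columns, and the call did not hold with the block. In whole liver, more Acot2 per hepatocyte and more cells that express it cannot be told apart.

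The cytosolic relative Acot1 was at 7.18, 8.12 and 8.84 in the 9-week KO livers, against 6.81, 6.74 and 8.04 in the WT livers. WT liver 3 overlapped the KO range. The difference was 0.85 ± 0.62 (SE; 95% interval -0.51 to 2.21; limma adjusted p = 0.608), with an interval that reaches up to the Acot2 difference. Within the array columns it was 1.27 in column 5 and 0.70 in column 7.

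The peroxisomal Acot3 and Acot4 had smaller differences than Acot1, and neither passed the test. Acot3, which prefers long-chain acyl-CoAs, was at 7.15, 7.91 and 8.24 in the 9-week KO livers, against 7.08, 7.34 and 7.26 in the WT livers. KO livers 2 and 3 were above all WT livers and KO liver 1 was not. The difference was 0.54 ± 0.53 (SE; 95% interval -0.64 to 1.71; limma adjusted p = 0.733). Acot4, which acts on succinyl-CoA and other dicarboxylic acyl-CoAs, was at 7.74, 8.14 and 8.71 in the KO livers, against 7.79, 7.78 and 8.30 in the WT livers. These groups overlapped widely, with a difference of 0.24 ± 0.44 (SE; 95% interval -0.73 to 1.22; limma adjusted p = 0.875).

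Acot12, the acetyl-CoA hydrolase, was at 9.78, 9.82 and 9.76 in the 9-week KO livers, against 9.87, 9.83 and 10.03 in the WT livers. All KO livers were below all WT livers, with KO liver 2 (9.82) next to WT liver 2 (9.83), a pattern that 8.52% of features share. The difference was -0.12 ± 0.09 (SE; 95% interval -0.32 to 0.08; limma adjusted p = 0.626). Of the 5 genes 1 rose and 0 fell, and 4 had a difference above 0. Their median difference was 0.54, against -0.007 over all features.

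**Figure D1:**
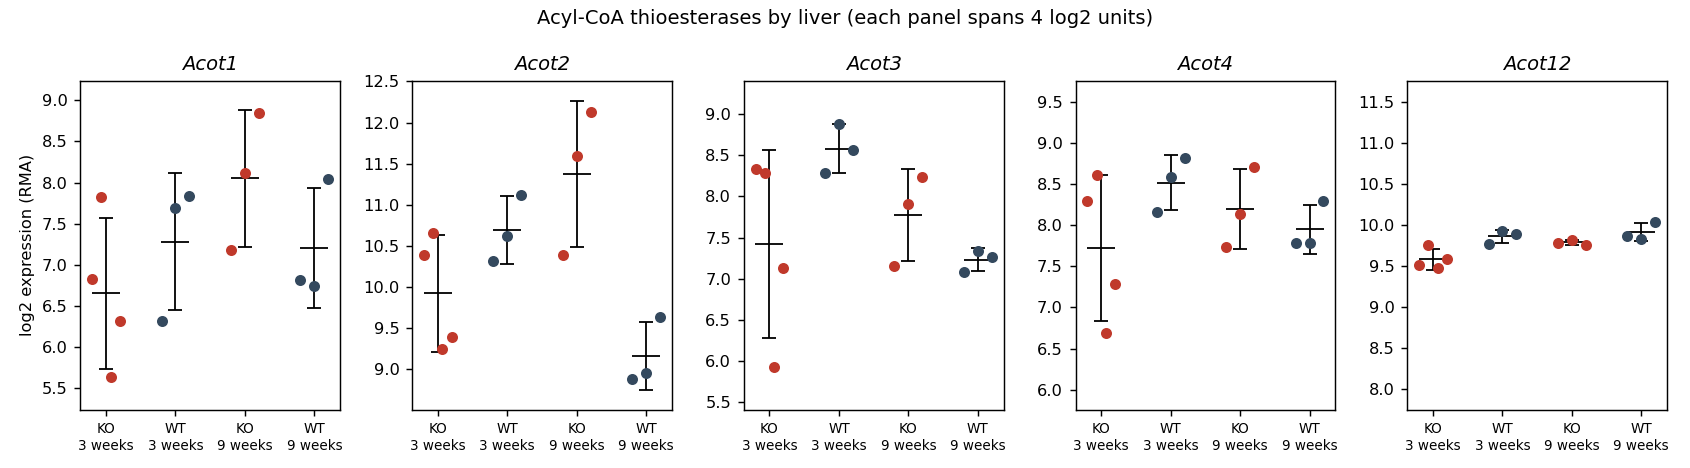
Log2 expression (RMA) of the 5 thioesterase genes in each liver (points), grouped by genotype and age on the horizontal axis, with bars for the mean and SD of the group (n = 4 for KO at 3 weeks, n = 3 otherwise). Every panel spans the same number of log2 units. The 9-week KO livers lie above the 9-week WT livers in Acot2 alone, and Acot12 is nearly flat.

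The 9-week genotype groups also differed in genes whose adult level depends on sex and growth hormone. Of all features, 1.52% passed at this age. Of 11 measured male-biased genes 6 fell, with a summed level of 11.63 to 12.84 in KO livers, against 13.34 to 14.03 in WT livers. Of 11 measured female-biased genes 4 rose, with a summed level of 10.12 to 11.16 in KO livers, against 8.63 to 9.31 in WT livers. Their part in the Acot2 difference was not tested. The hepatocyte sum lay between 15.29 and 15.41 in the 9-week KO livers, against 15.33 to 15.45 in the WT livers. The sum of 5 measured adipocyte markers lay between 6.36 and 6.77 in KO livers, against 6.22 to 6.34 in WT livers, so that all KO livers were higher, as in Acot2. Of these markers Plin4 averaged 6.15 in KO livers and 5.70 in WT livers, with overlap, while the defining marker Adipoq averaged 2.15 in KO livers and 2.08 in WT livers, below the array medians of 3.72 to 3.81. The sum of 3 measured red cell markers was lower in all KO livers, at 6.23 to 6.87, against 7.08 to 7.91 in WT livers. Of these markers Alas2 averaged 6.37 in KO livers and 7.45 in WT livers without overlap, a pattern that 8.52% of features share. Slc4a1 (3.65 and 3.86) and Epb42 (2.17 and 2.21, below the array medians) overlapped. The stellate cell sum lay between 11.10 and 11.23 in KO livers, against 10.95 to 11.10 in WT livers. No adipocyte or red cell marker passed the test at 9 weeks, and the part of these cell types in the Acot2 difference was not tested.

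At 3 weeks, all 5 genes had a lower mean in KO than in WT livers and none passed the test. The share of all features that passed was 0.0%, while 7.41% had an unadjusted p under 0.05. Acot3 and Acot12 were the 2 of the 5 genes with an unadjusted p under 0.05. The median difference of the 5 genes was -0.77, against 0.004 over all features, and -0.16 without KO livers 3 and 4.

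Acot12 was the one whose 3-week groups did not overlap. It was at 9.51, 9.76, 9.47 and 9.59 in KO livers, against 9.77, 9.92 and 9.89 in WT livers. KO liver 2 (9.76) came next to WT liver 1 (9.77), and 3.53% of features had all KO livers below all WT livers at this age. The difference was -0.27 ± 0.09 (SE; 95% interval -0.46 to -0.09), or 0.827-fold, with limma adjusted p = 0.515. Without KO livers 3 and 4 it was -0.22 (limma adjusted p = 0.996). Within the array columns it was -0.15 in column 5 and -0.43 in column 7.

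Acot3 had the largest 3-week difference of the 5. It was at 8.34, 8.28, 5.93 and 7.13 in KO livers, against 8.29, 8.88 and 8.57 in WT livers. KO livers 1 and 2 lay at the level of WT liver 1, and KO livers 3 and 4 lay below all WT livers. The difference was -1.16 ± 0.50 (SE; 95% interval -2.26 to -0.06; limma adjusted p = 0.652), and -0.27 without livers 3 and 4.

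Leaving out the same livers also shrank the 3-week differences of the other cluster genes. Acot2 was at 10.39, 10.66, 9.24 and 9.39 in KO livers, against 10.31, 10.62 and 11.12 in WT livers. Its difference was -0.77 ± 0.45 (SE; 95% interval -1.75 to 0.22; limma adjusted p = 0.747), and -0.16 without KO livers 3 and 4. KO livers 1 and 2 lay within the WT range and KO livers 3 and 4 below it.

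Acot4 was at 8.29, 8.61, 6.69 and 7.28 in the 3-week KO livers, against 8.16, 8.59 and 8.82 in the WT livers. Its difference was -0.81 ± 0.41 (SE; 95% interval -1.72 to 0.10; limma adjusted p = 0.712), and -0.0729 without livers 3 and 4. Again KO livers 1 and 2 lay within the WT range. Acot1 was at 6.82, 7.82, 5.63 and 6.32 in KO livers, against 6.32, 7.69 and 7.83 in WT livers, where WT liver 1 was as low as KO liver 4. Its difference was -0.63 ± 0.58 (SE; 95% interval -1.90 to 0.64; limma adjusted p = 0.840), and 0.0419 without livers 3 and 4.

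Marker sums of some other cell types were also lower in KO livers at 3 weeks. The summed Kupffer cell markers (8 of 8 below 0 in their difference) lay between 10.95 and 11.20 in KO livers, against 11.35 to 11.48 in WT livers. The stellate cell sum lay between 11.06 and 11.24 in KO livers, against 11.24 to 11.43 in WT livers. The sum of 3 measured red cell markers lay between 6.26 and 7.27 in KO livers, against 7.26 to 8.14 in WT livers. No marker of these lists passed the test, and their part in the thioesterase values was not tested.

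**Figure D2:**
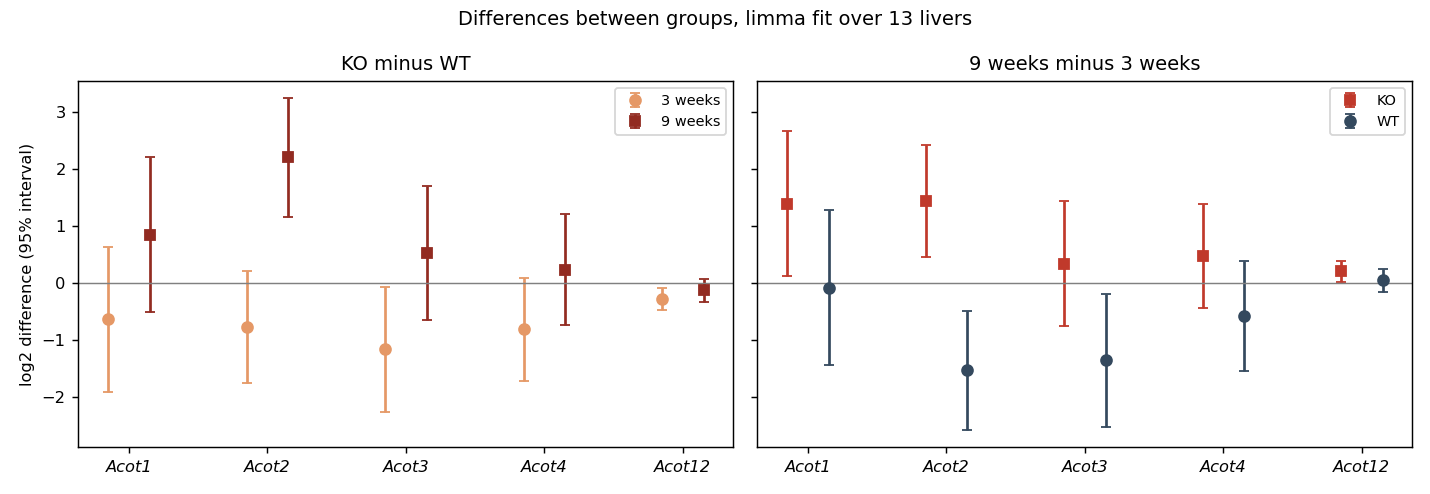
Log2 differences of the 5 genes with 95% intervals from limma, on the left KO minus WT at 3 and 9 weeks, on the right 9 minus 3 weeks in KO and in WT livers. For Acot2 the intervals at 9 weeks (1.16 to 3.26) and with age in WT livers (-2.58 to -0.48) lie on opposite sides of 0. Both comparisons use the 9-week WT livers, with opposite sign.

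With age, the Acot2 difference had opposite signs in the 2 genotypes. In KO livers its mean was 11.37 ± 0.89 at 9 weeks (SD, n = 3) and 9.92 ± 0.71 at 3 weeks (SD, n = 4), a difference of 1.45 ± 0.45 (SE; 95% interval 0.47 to 2.43; limma adjusted p = 0.274), and 0.84 without 3-week livers 3 and 4 (adjusted p = 0.712). In WT livers its mean was 9.16 ± 0.41 at 9 weeks and 10.69 ± 0.41 at 3 weeks (SD, n = 3 each), a difference of -1.53 ± 0.48 (SE; 95% interval -2.58 to -0.48; limma adjusted p = 0.161). The 9-week WT livers were all below the 3-week WT livers, whereas 9-week KO liver 1 lay within the 3-week KO range. Neither difference passed the test.

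The difference between these age effects is the same number as the difference between the genotype effects at the 2 ages. For Acot2 it was 2.98 ± 0.65 (SE; 95% interval 1.54 to 4.41; limma adjusted p = 0.228). Of all features 0.0% passed this test and 9.73% had an unadjusted p under 0.05, among them Acot2 and Acot3. Without 3-week KO livers 3 and 4 it was 2.37 (limma adjusted p = 0.537). The other differences of this kind were 1.70 ± 0.73 for Acot3, 1.48 ± 0.85 for Acot1, 1.05 ± 0.61 for Acot4 and 0.15 ± 0.13 for Acot12 (SE), with limma adjusted p between 0.485 and 0.740. All 5 were above 0, with a median of 1.48 against -0.007 over all features. Without 3-week KO livers 3 and 4 they were 0.80 for Acot3, 0.81 for Acot1, 0.32 for Acot4 and 0.10 for Acot12, and the median of the 5 was 0.80.

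By level, the 4 groups stood for Acot2 in the order 9-week KO, 3-week WT, 3-week KO and 9-week WT. Each neighbour in that order overlapped the next in single livers. For Acot1 the order was 9-week KO, 3-week WT, 9-week WT and 3-week KO. For Acot3 and Acot4 it was 3-week WT first, followed by 9-week KO, with 3-week KO above 9-week WT in Acot3 and below it in Acot4. Neighbours overlapped in these genes too, except that 3-week WT livers lay above all 9-week KO livers in Acot3. For Acot12 it was 9-week WT, 3-week WT, 9-week KO and 3-week KO, with each neighbour overlapping the next.

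In WT livers, Acot3 shared the direction of Acot2 with age. Its mean was 7.23 ± 0.14 at 9 weeks and 8.58 ± 0.30 at 3 weeks (SD, n = 3 each), with no overlap, and a difference of -1.35 ± 0.53 (SE; 95% interval -2.52 to -0.18; limma adjusted p = 0.286). Without 3-week KO livers 3 and 4, which enter through the shared estimate of the spread, the same difference had adjusted p = 0.0328. Acot4 differed by -0.57 ± 0.44, Acot1 by -0.08 ± 0.62 and Acot12 by 0.05 ± 0.09 (SE), with limma adjusted p between 0.652 and 0.977. Of all features 1.89% passed with age in WT livers and 9.38% had all 9-week livers below all 3-week livers. None of the 5 genes passed. Acot2 and Acot3 had an unadjusted p under 0.05, as did 13.6% of features, and the median of the 5 was -0.57 against 0.014 over all features.

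In KO livers, Acot1 had a mean of 8.05 ± 0.83 at 9 weeks (SD, n = 3) and 6.65 ± 0.92 at 3 weeks (SD, n = 4). The difference was 1.40 ± 0.58 (SE; 95% interval 0.13 to 2.67; limma adjusted p = 0.442), and 0.73 without 3-week livers 3 and 4. Acot12 differed by 0.21 ± 0.09, Acot4 by 0.48 ± 0.41 and Acot3 by 0.34 ± 0.50 (SE), with limma adjusted p between 0.445 and 0.899. Without 3-week livers 3 and 4 the differences of Acot4 and Acot3 were -0.25 and -0.55. Of all features 0.155% passed with age in KO livers, and 10.1% had an unadjusted p under 0.05. None of the 5 genes passed, and Acot1, Acot2 and Acot12 had an unadjusted p under 0.05.

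By the SD pooled over the 4 groups, Acot1 to Acot4 varied widely between livers of the same group, and Acot12 did not. The pooled within-group SD was 0.84 for Acot1, 0.65 for Acot2, 0.73 for Acot3 and 0.60 for Acot4, against a median of 0.16 over 18820 genes. At least 99.2% of genes had a smaller one than each of these 4. The pooled SD was not computed without 3-week KO livers 3 and 4. The SD of Acot3 was 1.14 in that group, 0.56 in 9-week KO, 0.30 in 3-week WT and 0.14 in 9-week WT livers. For Acot4 these were 0.89, 0.49, 0.34 and 0.30. The group SDs of Acot1 ran from 0.73 to 0.92 and those of Acot2 from 0.41 to 0.89. Acot12 had 0.10, with 13.9% of genes below it. Over all 13 livers Acot2 spanned 3.25 log2 units, Acot1 3.21, Acot3 2.95, Acot4 2.13 and Acot12 0.56.

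The cluster genes deviated from their group means in the same livers. In the 3-week KO group liver 3 was lowest and liver 4 next in each of Acot1 to Acot4. In the 9-week KO group the livers ran 1, 2, 3 from low to high in each of them. WT liver 1 at 3 weeks was lowest in each of the 4, and WT liver 3 at 9 weeks was highest in Acot1, Acot2 and Acot4 but not in Acot3. Acot12 had its lowest value in the same livers in the 2 groups of 3 weeks, and not in the 9-week KO group.

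Many PPARalpha target genes outside the family shared the liver order of 1 KO group, and fewer shared both. Of 31 measured, 24 (77.4%) had 3-week KO livers 3 and 4 below livers 1 and 2, against 21.6% of all genes. In the 9-week KO livers 14 (45.2%) ran 1, 2, 3 from low to high, against 17.4% of all genes. Both orders held together in 11 (35.5%), against 4.38% of all genes. Cd36, a fatty acid uptake receptor, did neither, with livers 3 and 4 highest in the 3-week KO group. Pdk4 and Ehhadh were chosen as examples after their values were seen. Pdk4, a kinase that turns off glucose oxidation in fasting, was at 7.74, 9.49, 5.93 and 5.68 in the 3-week KO livers, against 6.76, 9.52 and 9.68 in the 3-week WT livers. It was at 6.87, 9.35 and 10.36 in the 9-week KO livers, against 6.31, 5.48 and 8.32 in the 9-week WT livers. The low and high livers of Pdk4 within each group were thus those of Acot1, apart from the order of KO livers 3 and 4 at 3 weeks. Ehhadh, a peroxisomal oxidation enzyme, ran in the same order as Acot1 in all 4 groups. The time since the last meal of single mice was not given, and its part in these values was not tested.

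The level of Ppara was at 9.82, 9.99, 8.98 and 9.32 in the 3-week KO livers, against 9.77, 9.72 and 10.01 in the WT livers. It was at 9.89, 9.69 and 9.72 in the 9-week KO livers, against 9.86, 9.64 and 10.08 in the WT livers. At 3 weeks KO livers 3 and 4 were lowest, as in Acot1 to Acot4, and at 9 weeks the groups overlapped. The difference of Ppara was -0.31 ± 0.21 at 3 weeks and -0.09 ± 0.23 at 9 weeks (SE; limma adjusted p = 0.781 and 0.913).

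**Figure D3:**
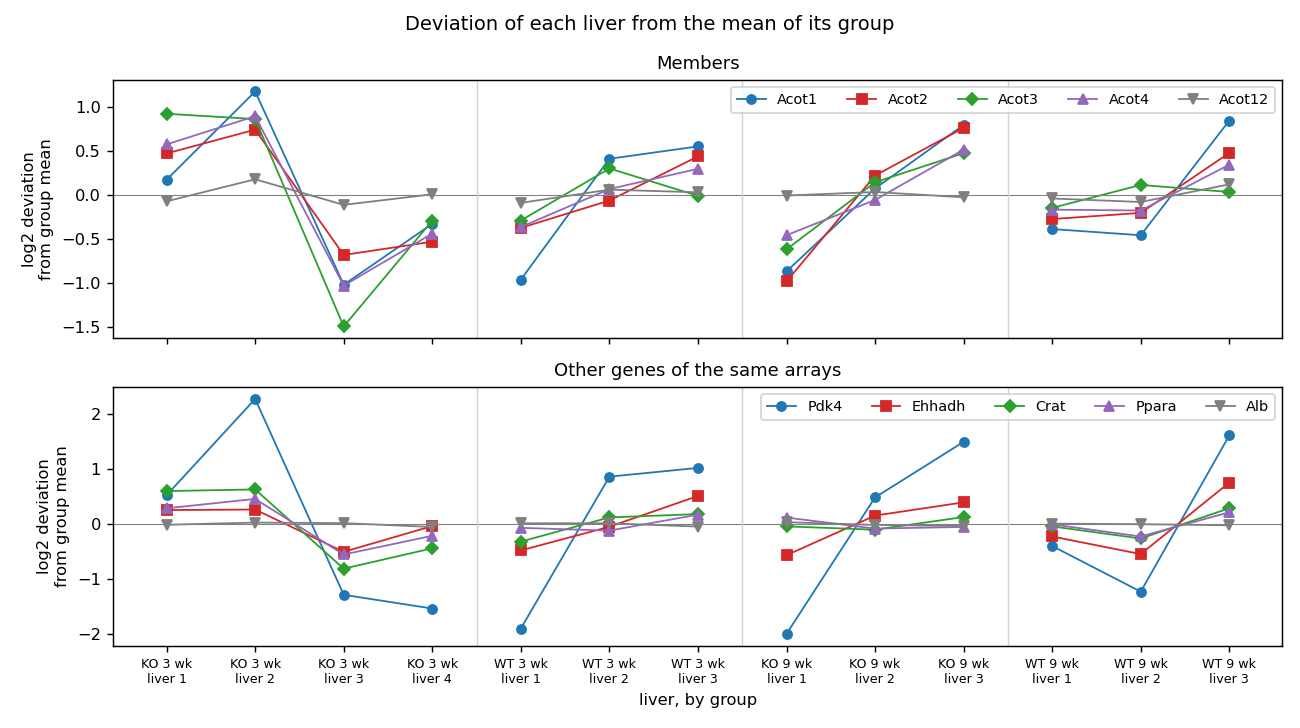
Log2 deviation of each liver from the mean of its group, for the 5 thioesterases (top) and for Pdk4, Ehhadh, Crat, Ppara and Alb (bottom), with livers on the horizontal axis. Acot1 to Acot4 dip together in KO livers 3 and 4 at 3 weeks and climb together over KO livers 1, 2 and 3 at 9 weeks, while Acot12 and Alb stay near 0.

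The genes outside the 5 whose pattern over the 13 livers came closest were found by the root-mean-square (RMS) difference of mean-centred log2 values. The search covered 2995 genes that spanned at least 1 log2 unit. It left out the 5 genes themselves and predicted, olfactory and vomeronasal receptor and small RNA genes. The points are the 13 livers, which include the group differences. For Acot1, whose own RMS deviation was 0.867, they were Slc22a5 (0.334), Dusp8 (0.402), G0s2 (0.422) and Rab30 (0.442). Slc22a5 encodes a carnitine transporter and G0s2 an inhibitor of triglyceride lipase. For Acot2 (own RMS 0.966) they were Ccdc120 (0.489), Cidec (0.495), Slc20a1 (0.515) and Ehhadh (0.518), of which Cidec encodes a lipid droplet protein.

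Acot3 and Acot4 shared neighbours. Outside the 5 genes, closest to Acot3 (own RMS 0.787) were Crat (0.415), Cd63 (0.439), Plin5 (0.463) and Cenpn (0.469), while Acot4 was closer (0.363). Closest to Acot4 (own RMS 0.585) were St3gal5 (0.255), Crat (0.255), Plin5 (0.256) and Hsdl2 (0.261). Crat encodes carnitine acetyltransferase and Plin5 a lipid droplet protein. Among Acot1 to Acot4, Acot3 and Acot4 were the closest pair (0.363), followed by Acot1 and Acot4 (0.524) and Acot1 and Acot2 (0.657). Acot12, which is nearly flat, was 0.514 from Acot4, little below the own RMS deviation of Acot4. The genes nearest to Acot12 (Hic2, Lman2l, Brap and Kif2b, from 0.154 to 0.177) were no closer to it than a flat line, at 0.154.

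Of the other acyl-CoA thioesterases, 12 of 14 listed genes were measured and 1 changed, Acot6, the last gene of the cluster, which in mouse acts on branched-chain acyl-CoAs. Acot6 was at 4.22, 4.57 and 4.63 in the 9-week KO livers, against 3.43, 3.57 and 3.52 in the WT livers. All KO livers were above all WT livers, a pattern that 9.89% of features share. Of all features 1.52% passed at this age. The difference was 0.97 ± 0.11 (SE), or 1.96-fold, and Acot6 rose (limma adjusted p = 0.00793). The WT livers were below the array medians, so this is a lower bound if their level is background.

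Unlike Acot2, Acot6 kept its 9-week call whichever single liver was left out, with differences of 0.89 to 1.09 and limma adjusted p from 0.0012 to 0.048. It lost the call when only the 9-week livers entered the fit (adjusted p = 0.139). Its within-group SD of 0.14 was below the median of all genes, and its 9-week KO livers ran 1, 2, 3 from low to high as Acot2 did. At 3 weeks Acot6 was at 4.01, 4.21, 4.17 and 4.20 in KO livers, against 4.13, 3.93 and 4.17 in WT livers, with a difference of 0.07 ± 0.11 (SE; limma adjusted p = 0.913). KO livers 3 and 4 were not low in it.

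With age in WT livers Acot6 fell by 0.57 ± 0.11 (SE; limma adjusted p = 0.0305), a call kept in 8 of 13 fits that left out 1 liver (adjusted p up to 0.104). Of all features 1.89% passed in this comparison. This comparison shares the 9-week WT livers with the 9-week genotype comparison and is not independent of it. In KO livers the age difference was 0.33 ± 0.11 (SE; limma adjusted p = 0.304), and the difference between the genotype effects of the 2 ages was 0.90 ± 0.16 (SE; limma adjusted p = 0.168). Acot5, between Acot3 and Acot6 on the chromosome, was between 1.60 and 1.96 in all livers, below the array medians, and did not pass. The remaining 10 thioesterases, among them the cytosolic Acot7, the mitochondrial Acot9 and Acot13 and the bile acid conjugating enzyme Baat, did not pass the test in any comparison. Acot13 differed by 0.05 ± 0.10 and Baat by -0.40 ± 0.19 at 9 weeks (SE; limma adjusted p = 0.893 and 0.380). The median of the 12 genes was 0.05 at 9 weeks and 0.02 at 3 weeks.

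Among the genes around the cluster that are not thioesterases, 6 of 10 listed were measured. Riox1, a ribosomal oxygenase gene directly before Acot2, was at 4.98, 4.81 and 4.93 in the 9-week KO livers, against 4.11, 4.10 and 4.36 in the WT livers, with no overlap. It rose by 0.71 ± 0.15 (SE; 1.64-fold; limma adjusted p = 0.0460). At this age 1.52% of all features passed, and 9.89% had every KO liver above every WT liver. With age in WT livers, a comparison that shares the 9-week WT livers, Riox1 fell by 0.75 ± 0.15 (SE; limma adjusted p = 0.0323). With 1 liver left out, the 9-week call of Riox1 held in 3 of 13 fits (0.67 to 0.80; adjusted p up to 0.157) and its age call in 6 of 13. The other 5 (Papln, Numb, Dnal1, Pnma1 and Mideas) did not pass at either age. The median of the 6 was 0.08 at 9 weeks and -0.16 at 3 weeks.

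**Figure D4:**
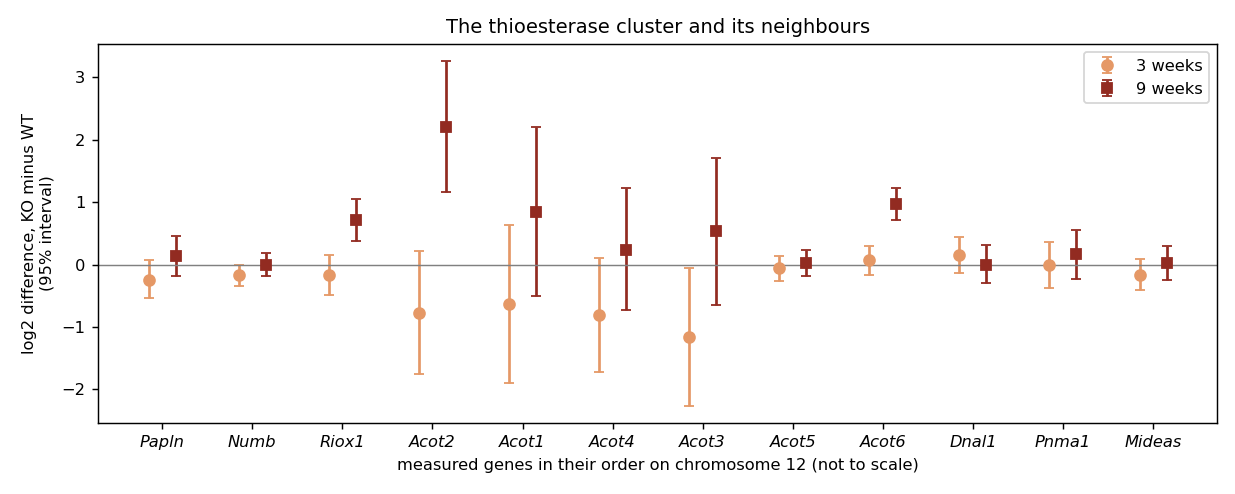
KO minus WT log2 differences with 95% intervals at 3 weeks (circles) and 9 weeks (squares) for the measured genes around the thioesterase cluster, in their order on chromosome 12 and not to scale. Riox1, Acot2 and Acot6 rose at 9 weeks, by 0.71, 2.21 and 0.97, and the genes between them have intervals that include 0 at that age.

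Of all features, 1.52% passed at 9 weeks. Among 31 measured PPARalpha target genes outside the family (of 36 listed), 1 rose at 9 weeks and 0 fell. It was Cd36, at 7.70, 8.60 and 8.34 in KO livers, against 6.75, 6.31 and 6.65 in WT livers (1.64 ± 0.23, SE; 3.12-fold; limma adjusted p = 0.0121). The median of the list was 0.15 at 9 weeks, with 24 of 31 above 0. At 3 weeks 0 passed, 26 of 31 were below 0 and the median was -0.29. In the difference between ages 30 of 31 were above 0 with a median of 0.33, and 0 passed. Without 3-week KO livers 3 and 4, 22 of 31 were below 0 at 3 weeks with a median of -0.05, 26 of 31 were above 0 in the difference between ages with a median of 0.22, and at 9 weeks 2 passed upward, Cd36 and Fgf21, a fasting hormone of the liver.

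Some genes that make, bind or spend the substrates of thioesterases changed at 9 weeks. Of all features, 1.52% passed at that age and 1.89% with age in WT livers. Of 14 genes of coenzyme A synthesis and turnover 1 fell, Nudt7, a peroxisomal hydrolase of coenzyme A and its esters. It was at 9.31, 8.11 and 9.22 in KO livers, against 10.48, 10.58 and 10.44 in WT livers (-1.62 ± 0.32, SE; 0.325-fold; limma adjusted p = 0.0363). With age in WT livers Nudt7 rose by 2.09 ± 0.32 (SE; limma adjusted p = 0.00941), and Vnn3, of the pantetheinase family, fell by 0.55 ± 0.12 (SE; limma adjusted p = 0.0372). The Nudt7 differences were opposite in sign to those of Acot2 and Acot6 in both comparisons. Both comparisons use the 9-week WT livers, with opposite sign, so for any gene they are not independent.

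Of 19 measured acyl-CoA synthetase genes 2 fell at 9 weeks and 0 rose, with a list median of -0.15. Slc27a5, a bile acid and very long-chain acyl-CoA synthetase, fell by 0.51 ± 0.10 (SE; limma adjusted p = 0.0340). Acsm2 fell by 0.58 ± 0.12 (SE; limma adjusted p = 0.0411) at levels below the array medians. Of 6 acyl-CoA binding genes 1 rose, Acbd3, a Golgi protein with an acyl-CoA binding domain (0.76 ± 0.15, SE; limma adjusted p = 0.0347). Acbd3 was also higher in the 3-week KO livers, at 7.56 to 7.90, against 6.85 to 7.20 in the 3-week WT livers, where it did not pass. Of 10 measured omega-oxidation genes 2 fell, Cyp4a12a and Cyp4a12b, which are near-identical, male-biased and uncertain one by one. With age in WT livers both rose, as did Cyp4f13 (0.68 ± 0.10, SE; limma adjusted p = 0.00807).

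Of 18 measured genes of peroxisomal oxidation, the compartment of Acot3, Acot4 and Acot6, 0 passed at 9 weeks and the median was -0.08. With age in WT livers 2 rose, Acox3 (0.76 ± 0.16) and Scp2 (0.91 ± 0.16), and 1 fell, Abcd2 (-2.10 ± 0.43, SE), a peroxisomal transporter of long-chain acyl-CoAs (limma adjusted p from 0.0192 to 0.0372). Of 10 nuclear receptor and related genes 0 passed at 9 weeks, and Pparg fell with age in WT livers (-0.96 ± 0.19, SE; limma adjusted p = 0.0272). At 3 weeks 0 genes of these lists passed, and the share of all features that passed was 0.0%.

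Most of these calls outside the family also stood near the threshold, and none changed sign in any alternative. With 1 liver left out, the 9-week call of Cd36 held in 10 of 13 fits (1.45 to 1.90; limma adjusted p up to 0.0632), that of Acbd3 in 6, that of Nudt7 in 5, that of Slc27a5 in 4 and that of Acsm2 in 3. The rise of Nudt7 with age in WT livers held in all 13 (1.86 to 2.30; adjusted p up to 0.0397), as did that of Cyp4f13 (adjusted p up to 0.0376). The age calls of Scp2 and Pparg held in 8 each, that of Vnn3 in 5, that of Acox3 in 4 and that of Abcd2 in 3.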

How the data were processed

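The files were 1 table of the authors' deposited log2 values, 35556 features by 13 livers, made by RMA, as the submitters' processing notes state. The method corrects background, quantile-normalizes arrays and summarises probes, so a shift common to most genes is largely removed. The sources used here give neither the software, its version and probe definition nor the array's genome build. The table has no detection calls. Array medians lay between 3.72 and 3.81. Arrays of a group correlated at 0.9828 to 0.9884 and arrays of different groups at 0.9761 to 0.9871, so no liver appeared to be a copy of another.

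Features were named from the platform annotation: 21218 had 1 symbol, 1881 several, and 12457 were not listed and are unnamed here. Gene order and promoters came from RefSeq tables (GRCm38.p6), and all 5 genes had a promoter entry. Groups and replicate numbers came from sample titles. The descriptions of both 9-week replicate 3 livers carry another number, and the titles were used.

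The linear model of limma 3.58.1 (R 4.3.3), with 1 mean for each group and two-sided moderated tests from eBayes, was fitted to 13 livers for 5 contrasts and adjusted by Benjamini-Hochberg over 35556 features, at 0.05. It was tested on simulated data. Tables were handled with pandas 2.3.3 in Python 3.11.15. Precision is limited by how few arrays each group has.

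The members and lists were chosen with earlier results of these data known. Named were the 5 genes, other thioesterases where a value was needed, Sel1l, Ppara and members of lipid gene lists that passed in a contrast (up to 6). Also named were, for each of the 5, the 4 most similar genes outside the 5, and measured genes within 5 places of the cluster. Apart from Cyp4a12a and Cyp4a12b, sex-biased genes that passed were counted and not named, and cell type markers that passed with age were left out. Hspa5 and Syvn1, of a further list, also rose at 9 weeks (limma adjusted p = 0.0126 and 0.0154). Pdk4, Ehhadh and Crat in the liver comparison were chosen after their values were seen. Alternatives were the replicate number or array column (an assumed reading of a 5 or 7 in the array file names) as a block, only the groups compared, fewer features, another variance prior, a further quantile normalization and leaving out livers. Leaving out 3-week KO livers 3 and 4, alone or with 9-week KO liver 1, was chosen after seeing the data.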

Additional observations from a re-analysis of the deposited data

Results flagged for a closer look

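The Acot2 genotype differences had opposite signs at the 2 ages, and the 3-week one did not pass the test (-0.77; 95% interval -1.75 to 0.22). Every 3-week KO liver was below the 3-week WT mean of 10.69, and every 9-week KO liver was above the 9-week WT mean of 9.16. The difference between the 2 effects was 2.98 ± 0.65 (SE) on the log2 scale and did not pass the test (limma adjusted p = 0.228). With 1 liver left out it lay between 2.60 and 3.47, with adjusted p from 0.0617 to 0.458. Without 3-week KO livers 3 and 4 the 3-week difference was -0.16 and the difference between the 2 effects was 2.37 (adjusted p = 0.537). The other 3-week KO livers, at 10.39 and 10.66, lay within the WT range.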

How the results depend on the processing

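In the 9-week genotype comparison, 1 of the 5 genes passed (Acot2). The count was 0 with the replicate block (2.21; limma adjusted p = 0.0932), with the assumed array column as a block (0.0797), with only the groups compared in the fit (0.187), after a further quantile normalization (0.0519) and without 3-week KO livers 3 and 4 (0.0525). It ranged from 0 to 1 with 1 liver left out. It stayed at 1 with single-symbol features (0.0212), features above the median (0.0252), a trended robust prior (0.0439) and with 9-week KO liver 1 also out (0.00663). Acot2 kept its sign in all 22 alternatives, at 1.83 to 2.70. Deviations of same-numbered livers correlated at -0.013 to 0.0769 (median 0.028), against -0.0851 to 0.0594 (median -0.012) for other numbers. Such small correlations over all features cannot settle whether the replicate numbers pair the livers.

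With age in WT livers the count was 0, and 1 with only the groups compared (Acot3, adjusted p = 0.0411) or without 3-week KO livers 3 and 4 (Acot3, 0.0328). It was 2 with 9-week KO liver 1 also out (Acot2 0.0339, Acot3 0.00663). The counts of the other 3 comparisons stayed at 0 in all alternatives. Fewer livers change the spread estimate, and other causes were not tested.

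Some differences that had not passed changed sign. Without 3-week KO livers 3 and 4, Acot1 was 0.0419 at 3 weeks, and the age differences in KO livers were -0.55 for Acot3 and -0.25 for Acot4 (-0.24 and -0.0232 with 9-week KO liver 1 also out). With 1 liver left out, Acot4 at 9 weeks ranged from -0.0112 to 0.47, Acot1 with age in WT livers from -0.56 to 0.19, Acot12 there from -0.0076 to 0.0931, and Acot3 with age in KO livers from -0.15 to 0.65.

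Over all features, 539 passed at 9 weeks, against 184 with the replicate block, 294 with the column block, 1 with only the groups compared, 859 above the median, 279 and 1001 without the livers named above, and 18 to 1178 with 1 liver left out. With age, 672 passed in WT livers, against 440, 255 with only the groups, and 296 to 639. In KO livers 55 passed, against 12 with the replicate block, 18 with the column block, 9 with only the groups, 109 above the median, 144 with single-symbol features, 89 without the 3 livers and 6 to 210. The difference between ages gave 0, against 15 with single-symbol features, 1 without the 3 livers and 0 to 36. At 3 weeks it was 0, against 2 and 0 to 1. The mean over several features gave no value, since each gene has 1, and fitting only the groups compared gave none for the difference between ages, which uses all groups. No detection calls exist, so levels near or below the array medians are limits.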
